A study of Schizosaccharomyces pombe with 12 samples.

Results

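The glutamine mutant and the arginine mutant of histone H2B were set directly against each other in the fission yeast Schizosaccharomyces pombe. The comparison used 6 of the 12 RNA-seq libraries of the study, chosen by genotype: 3 of the glutamine mutant (Q) and 3 of the arginine mutant (R). Q carried the genotype H2BK5QK10QK15Q, in which the lysines at positions 5, 10 and 15 were replaced with glutamine. R carried H2BK5RK10RK15R, in which the same lysines were replaced with arginine. The study also holds 3 libraries of an alanine mutant (A), labelled H2BK5AK10AK15A except for 1 library whose label reads K16A at the last site, and 3 of the wild type (WT). It set every mutant against WT, and its title concerns acetylation of these lysines and the repair of DNA double-strand breaks. RNA came from whole cells, and mRNA was enriched with oligo(dT). The labels do not state whether the replicates are separate cultures; the p-values therefore describe variation among these libraries, which may be technical. Differences between the strains outside the H2B gene cannot be told apart from the substitutions. The auxotrophic marker gene ura4 had at most 1 count in any of the 12 libraries, so its near absence was shared by all groups.

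H2B is one of the 4 core histones around which DNA is wrapped in the nucleosome, and its amino-terminal tail extends outside the particle. Acetylation removes the positive charge of a lysine in such a tail and creates a mark that bromodomain proteins can read. Glutamine has no charge and is widely used to imitate acetyl-lysine, whereas arginine keeps the positive charge and cannot be acetylated. The pair therefore contrasts an imitation of the acetylated tail with a tail fixed in the unacetylated charge state.

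Fission yeast has a single H2B gene, htb1 (SPCC622.09). The start of its coding sequence is shown because it holds all the replaced residues. It was read from the RefSeq assembly ASM294v3, chrIII:1412484-1412543, plus strand, and is thus the unmutated sequence. Capitals mark the codons of lysines 5, 10 and 15, counted without the initiator methionine. All 3 are AAG in the reference.

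htb1 coding start: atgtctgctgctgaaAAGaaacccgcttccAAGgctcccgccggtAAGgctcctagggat

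Of 5024 genes tested, 183 were called different between Q and R (3.64%), 104 higher (2.07%) and 79 lower (1.57%) in Q. A gene was called at an adjusted p below 0.05 (edgeR quasi-likelihood test, Benjamini-Hochberg adjustment over all tested genes). At least 2-fold apart were 73 genes (1.45%), 50 higher in Q (0.995%) and 23 lower (0.458%). The median log2 fold change, Q over R, of all tested genes was 0.02. Of the 104 genes higher in Q, 45 lay near the ends of chromosomes I and II and 59 elsewhere, and the genes lower in Q included histone, cell separation and hexose transporter genes. Levels are given as CPM, counts scaled to the effective library size, and fold changes as log2 of Q over R with a standard error (SE). For 182 of the 183 called genes the 3 Q and 3 R libraries did not overlap, the exception being mel1. Among all tested genes 18.3% did not overlap, 9.16% in each direction. The mean WT level lay between both mutants for 73 of the 104 genes higher in Q and for 55 of the 79 genes lower in Q. Choosing genes by a gap between Q and R in itself favours a WT mean between them. Against WT, 10 of the 104 and 2 of the 79 were called in both mutants with opposite signs.

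Total counts ranged from 15329416 to 16608465 in Q and from 16777441 to 17493119 in R, and 3 counts corresponded to between 0.169 and 0.19 CPM. The first principal component of the 6 libraries, with 40.3% of the variance, placed Q at 14.3, 19.3 and 15.3 and R at -23.5, -4.5 and -20.8. The second component, with 28.2%, had its lowest values in replicate 2 of both mutants, at -14.1 in Q and -24.7 in R. The number of called genes rested on single libraries. It was 88 without Q replicate 1, 91 without Q replicate 3, 61 without R replicate 1, 51 without R replicate 3 and 462 without R replicate 2. In all 6 fits that left out 1 library, 44 of the 183 genes were called. On the deposited FPKM values, tested with limma, the median of all genes shifted to 0.13 and 77.0% of 200 called genes were higher in Q, against 56.8% of the 183.

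The ends of chromosomes I and II held the largest group of genes that differed. These subtelomeric regions are packaged into silent or weakly expressed chromatin, and many of their genes belong to families with copies at several ends. Of the 160 outermost genes, 40 at each end, 137 were tested, and 45 of them were called higher in Q and none lower (edgeR). The share of 32.8% stands beside 2.07% of all tested genes called higher in Q and 1.2% of the genes elsewhere. The median log2 fold change of the 137 genes was 0.75. All 4 ends took part. At the left end of chromosome I 12 of 37 tested genes were called higher, at its right end 15 of 34, at the left end of chromosome II 9 of 31, and at its right end 9 of 35. The medians were 0.77, 1.07, 0.75 and 0.72 in that order.

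With the ends of chromosomes I and II pooled, the share called and the median difference between Q and R fell with distance from the end. Of the genes ranked 1 to 10 from an end, 17 of 31 tested were called higher in Q, with a median log2 fold change of 2.07. The shares were 13 of 36 at ranks 11 to 20, 9 of 32 at ranks 21 to 30 and 6 of 38 at ranks 31 to 40, with medians of 0.86, 0.8 and 0.35. Ranks 1 to 20 include a run of 13 genes at 1 end, described below, whose 11 tested genes were all called. The shares without that run were not computed. Against WT the medians of these 4 bands did not fall steadily, at 0.74, 1.46, 0.37 and 0 in Q and -1.01, 0.41, -0.51 and -0.37 in R. At ranks 41 to 60, 3 of 78 were called and the median was 0.01. The 40 genes at each end of chromosome III, where the ribosomal DNA repeats lie, had a median of 0.05, and 2 of 76 tested genes there were called higher.

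**Figure D1:**
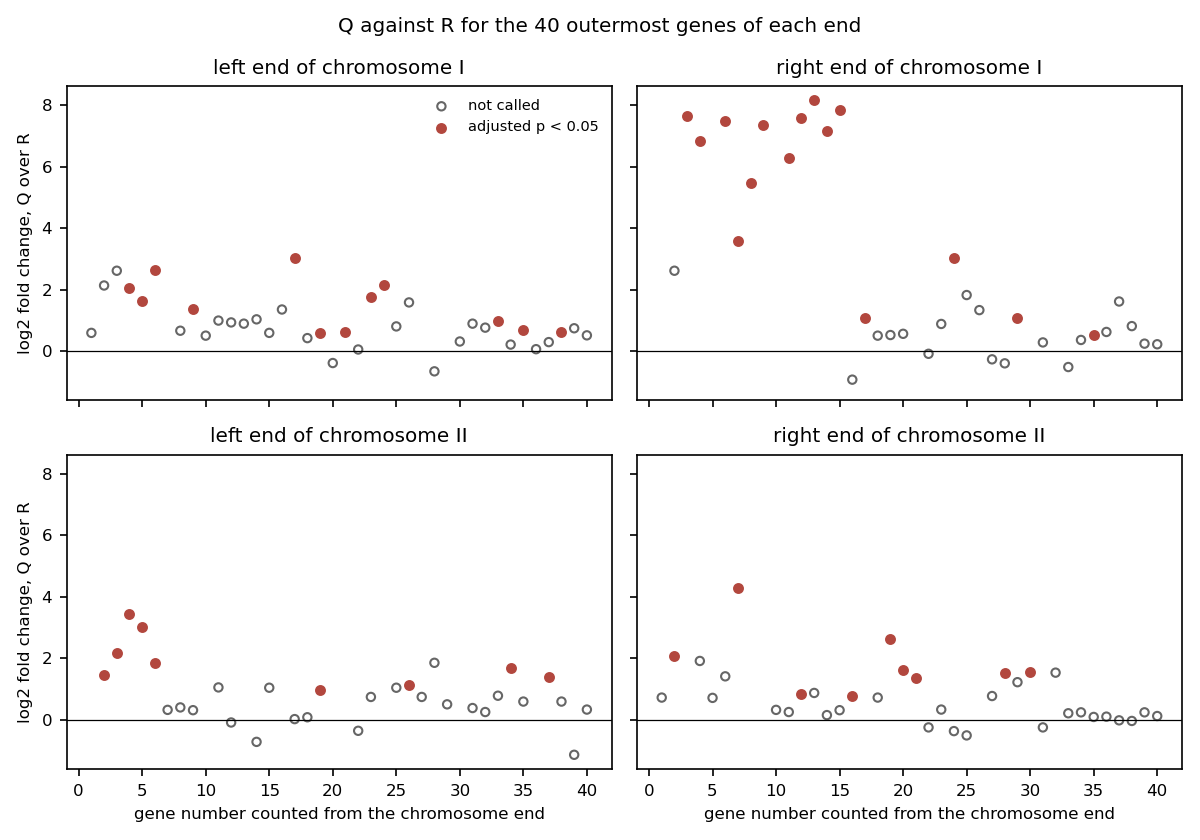
Log2 fold change of Q over R (vertical axis) for the 40 outermost genes of each end of chromosomes I and II, plotted against the gene's number from the end. Filled points are genes with an adjusted p below 0.05 (edgeR), and all 45 of them lie above 0. Those at the right end of chromosome I reach 8.16.

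Several of these genes belong to the 5Tm family of membrane proteins specific to this yeast. ftm5 (SPBC1348.02, left end of chromosome II) stood at 424, 408 and 517 CPM in the Q libraries, against 89.7, 113 and 97.2 CPM in the R libraries. Every Q library was above every R library, and the gene was called higher in Q (log2 fold change 2.17, SE 0.13, edgeR adjusted p = 1.01e-06). The family member ftm1 (SPAC977.01, left end of chromosome I) had 113, 109 and 133 CPM in Q and 38.3, 44.8 and 52.2 CPM in R. It was likewise called higher, by 1.39 on the log2 scale (SE 0.17, edgeR adjusted p = 0.00107). Both genes have near-identical copies elsewhere in the genome, so counts could be exchanged within the family.

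Genes with no such copy showed the same direction. cao2 (SPBC1289.16c), a copper amine oxidase-like gene at the right end of chromosome II, had 168, 123 and 129 CPM in Q and 54.3, 45.6 and 43.7 CPM in R (log2 fold change 1.55, SE 0.14, edgeR adjusted p = 6.45e-05). dak2 (SPAC977.16c), a dihydroxyacetone kinase that feeds glycerol carbon into glycolysis, had 42.2, 85.5 and 81.2 CPM in Q and 16.7, 14.6 and 15.4 CPM in R (2.16, SE 0.31, adjusted p = 0.00322). mug180 (SPBPB2B2.02), a predicted esterase, averaged 37.8 ± 6.88 CPM in Q and 14.8 ± 0.756 CPM in R (SD, n = 3 each; 1.35, SE 0.17, adjusted p = 0.00107). The libraries of Q and R were separate for all 3 genes, and Q replicate 1 of dak2 was the lowest of its Q libraries. gal1, the galactokinase of the galactose cluster at the right end of chromosome II, was called higher as well, at 45.3, 56 and 36.9 CPM in Q and 22.8, 32.5 and 22 CPM in R (0.84, SE 0.18, adjusted p = 0.0236). Its call was lost without Q replicate 1 or 2 (adjusted p = 0.0626 and 0.0591) and without R replicate 1 or 3 (0.104 and 0.118).

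Other subtelomeric genes were called higher in Q too, most of those given here at lower levels. SPBC1348.04, a predicted methyltransferase, had 14.2, 12.1 and 17 CPM in Q and 1.66, 1.9 and 1.77 CPM in R (log2 fold change 3.01, SE 0.21, edgeR adjusted p = 4.85e-06). SPBPB2B2.18, a protein of unknown role at the right end of chromosome II, had 4.61, 18.5 and 12.8 CPM in Q and 0.185, 1.01 and 0.633 CPM in R (4.28, SE 0.8, adjusted p = 0.0149). Its call was lost without R replicate 1 (0.0646) or R replicate 3 (0.0687), and this gene and SPBC1348.04 have near-identical copies. abc3, a transporter gene at the left end of chromosome II, had 40.7, 38.5 and 46.4 CPM in Q and 12.5, 22.7 and 12 CPM in R, with no overlap (1.41, SE 0.22, adjusted p = 0.00491). SPBPB2B2.06c, a predicted phosphatase, was called higher by 2.64 (SE 0.4). Of the 45 genes called at the ends, 19 have a copy at 95% identity or more over at least 50% of their length and 26 do not.

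Against WT, the subtelomeric genes moved in Q and in R in different measure. The median log2 fold change of the 137 genes was 0.58 in Q against WT and -0.35 in R against WT. Against WT, 55 of them were called higher and 9 lower in Q (18.6% and 15.8% of all tested genes), and 17 were called higher and 39 lower in R (13.2% and 11.1% of all tested genes). Both comparisons share the WT libraries. ftm5, for example, was above WT in Q (1.15) and below it in R (-1.01). The count of 45 was 26 without R replicate 1, 28 without R replicate 3 and 18 in a fit of the Q and R libraries alone, with none lower in Q in these fits. With replicate 2 of both mutants left out, 46 were called higher and 2 lower.

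The largest fold changes came from a run of neighbours on the right arm tip of chromosome I whose transcripts were nearly absent from R. The run covered 13 genes, from the third to the fifteenth counted from the end, from SPAC750.06c to SPAC186.03. Their summed counts were 6612, 10072 and 9571 in the Q libraries, against 96, 205 and 129 in the R libraries. The WT libraries had 5665, 4493 and 3722. Of the 11 genes in the run that were tested, 11 were called higher in Q, beside 2.07% of all tested genes. The limits of the run were set with these counts known, so this share follows from how the run was drawn. In R 10 of the 13 genes had 10 counts or fewer in every library, whereas in Q this was so for 1 gene, ftm3, which had no count.

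gdt1 (SPAC186.05c), a homolog of human TMEM165 implicated in calcium transport, had 38.7, 34.2 and 38.8 CPM in Q and 0.123, 0.119 and 0.127 CPM in R, which is 2 counts in each R library. It had the largest fold change and the lowest p among the genes higher in Q (log2 fold change 8.16, SE 0.25, edgeR adjusted p = 1.38e-09). With 2 counts in each R library, below the floor of 3 counts, neither this fold change nor its SE is precise. SPAC750.01, an aldo/keto reductase family gene, had 190, 228 and 241 CPM in Q and 3.69, 7.72 and 3.23 CPM in R (5.48, SE 0.3, adjusted p = 3.79e-07). pdc102, a predicted pyruvate decarboxylase, had 24.8, 36.3 and 23.5 CPM in Q and 0.185, 0.178 and 0.127 CPM in R (7.37, SE 0.36, adjusted p = 1.76e-07). Its R libraries had 3, 3 and 2 counts, so its fold change and SE are not precise either. In each case R lay far below both Q and WT, whose WT means were 22.7 CPM for gdt1, 131 CPM for SPAC750.01 and 32.4 CPM for pdc102.

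SPAC186.04c, a truncated channel gene (7.15), and ftm4 (6.85) were also called higher, with at most 7 counts in any R library. The predicted asparaginase gene SPAC186.03 had 230, 199 and 129 counts in Q and 0, 0 and 2 counts in R, and SPAC186.06 had 164, 287 and 218 counts in Q and 0, 2 and 1 counts in R. Both were called higher (edgeR adjusted p = 0.000177 and 1.69e-05). No fold change is given for them, because every R library had 2 counts or fewer and at least 1 had 0. SPAC186.07c, a predicted hydroxyacid dehydrogenase, varied among the Q libraries at 53.1, 208 and 104 CPM and had 0.493, 3.32 and 0.823 CPM in R (6.28, SE 0.77, adjusted p = 0.000962). SPAC750.06c had 28, 8 and 39 counts in Q and none in R, which makes it at least 24-fold higher in Q with the floor of 3 counts taken over the group. Of the members tested, gdt1, pdc102, SPAC750.01, SPAC186.04c, SPAC186.06 and SPAC186.07c have no near-identical copy elsewhere.

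The run had a sharp inner border. The next gene inward, SPAC186.02c, had 40, 16 and 7 counts in Q and 38, 39 and 41 counts in R and was not called, the groups overlapping (log2 fold change -0.92, edgeR adjusted p = 0.384). Beyond it lay pfl9, a cell surface glycoprotein gene, at 27.3, 32.5 and 28.1 CPM in Q and 10.8, 14.4 and 16.7 CPM in R (1.07, SE 0.19, adjusted p = 0.0107). RNA counts do not show whether the DNA of the run is present in the R strain, and this was not tested. Without the right end of chromosome I, 30 of 103 tested genes at the other 3 ends were called higher in Q and none lower, with a median of 0.73.

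**Figure D2:**
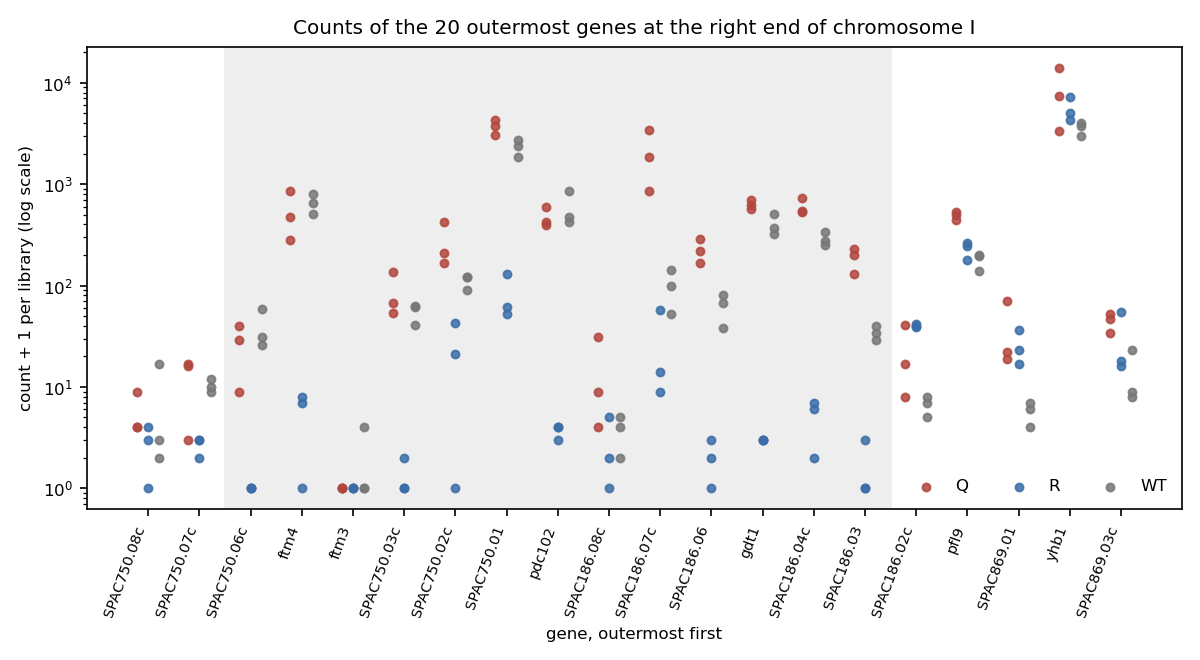
Count plus 1 per library (log axis) for the 20 outermost genes on the right side of chromosome I, outermost first, in Q, R and WT; each point is 1 library. Within the shaded run of 13 genes the R libraries reach at most 130 counts, while the Q libraries reach 4276.

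The histone genes formed a group that was lower in Q than in R. Nucleosomes need equal supplies of the 4 core histones, most of which are made in bursts when DNA is replicated. Of 11 core histone and variant genes tested, 4 were called lower in Q and none higher, against 1.57% of all tested genes called lower. 7 of the 11 had separate Q and R libraries, all of them lower in Q, beside 9.16% of all tested genes. The median log2 fold change was -0.47.

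The mutated gene htb1 itself had 1134, 1193 and 1281 CPM in the Q libraries and 5621, 5486 and 5953 CPM in the R libraries. The groups were far apart, and the spread within each was small (1202 ± 74 CPM in Q and 5687 ± 240 CPM in R, SD, n = 3 each). htb1 was called lower in Q (log2 fold change -2.24, SE 0.28, edgeR adjusted p = 0.00107). The WT mean of 3215 CPM lay between them. Scaled for length, htb1 stood at 965 ± 86.1 FPKM in Q, close to the H2A gene hta2 at 921 ± 52.2 FPKM in the same libraries. In R the level per length of htb1 was 4204 ± 152 FPKM, against 1180 ± 83.2 FPKM for hta2. In WT htb1 stood at 2540 ± 148 FPKM and hta2 at 1020 ± 171 FPKM, so htb1 was above hta2 there too. The other H2A gene, hta1, averaged 225 FPKM in Q, 377 FPKM in R and 400 FPKM in WT. The annotated 3′ end of htb1 overlaps sec5, an exocyst subunit gene on the opposite strand, and the handling of strand is not given. sec5 had 115, 165 and 117 CPM in Q and 126, 187 and 126 CPM in R, so the groups overlapped (-0.15, SE 0.2, adjusted p = 0.732).

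hta1 (SPCC622.08c), an H2A gene, is the divergent neighbour of htb1, with a shared space between the annotated transcripts. It had 216, 248 and 233 CPM in Q and 455, 353 and 466 CPM in R (log2 fold change -0.87, SE 0.17, edgeR adjusted p = 0.0162). The H3 gene hht1 had 370, 425 and 460 CPM in Q and 710, 643 and 728 CPM in R (-0.73, SE 0.14, adjusted p = 0.017). The H4 gene hhf3 had 320, 300 and 309 CPM in Q and 506, 441 and 585 CPM in R (-0.72, SE 0.12, adjusted p = 0.00821). Each of these genes had all Q libraries below all R libraries. hta2 (-0.47, adjusted p = 0.0714), hhf1 (-0.76, 0.0542) and hhf2 (-0.4, 0.135) had separate groups as well but were not called, although hhf1 was with replicate number as a block (adjusted p = 0.0301). hht2 (-0.25) and hht3 (-0.31) overlapped, as did the genes of the variants H2A.Z, pht1 (-0.06), and CENP-A, cnp1 (0.03). The calls of hta1 and hht1 were lost without some libraries, hta1 without either of replicates 1 and 3 of Q or R (adjusted p 0.0525 to 0.0725) and hht1 without Q replicate 1, R replicate 1 or R replicate 3 (0.0612 to 0.0756). The count of 4 was 2 in each fit without Q replicate 1, R replicate 1 or R replicate 3, and htb1 and hhf3 were called in all 6 fits. In the Q and R libraries alone the count was also 2, with hhf3 (0.0663) and hht1 (0.0633) no longer called.

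The space between hta1 and htb1 is shown because both genes of the pair were lower in Q. It was read on the plus strand of ASM294v3, chrIII:1412182-1412358, from the start of hta1 to the start of htb1. Capitals mark the histone box AACCCT, searched on both strands, which is bound in this yeast by the GATA-type factor Ams2.

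space between hta1 and htb1: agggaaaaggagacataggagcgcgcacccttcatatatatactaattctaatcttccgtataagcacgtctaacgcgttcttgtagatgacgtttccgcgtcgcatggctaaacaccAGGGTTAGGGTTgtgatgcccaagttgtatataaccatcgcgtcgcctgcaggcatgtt

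The box occurs as a tandem pair on the minus strand of this space. It was found in the 250 bases upstream of all 4 histone genes called lower and of 5 of the 7 that were not called, against 8.3% of 5112 promoters of the same length. The 2 genes without the box were pht1 and cnp1. hta1 and htb1 share the space of 177 bases, so their windows hold the same tandem pair and are not separate occurrences. The identifiers of hht1 and hhf1, of hht2 and hhf2, and of hht3 and hhf3 are consecutive, and each of these genes had 2 boxes. Their windows may hold the same boxes too, which was not checked. The numbers of genes with the box are therefore not numbers of separate promoters. ams2 itself did not differ detectably, at 76.5, 80.5 and 74.3 CPM in Q and 66.2, 74.4 and 64.9 CPM in R (0.17, SE 0.1, edgeR adjusted p = 0.369).

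**Figure D3:**
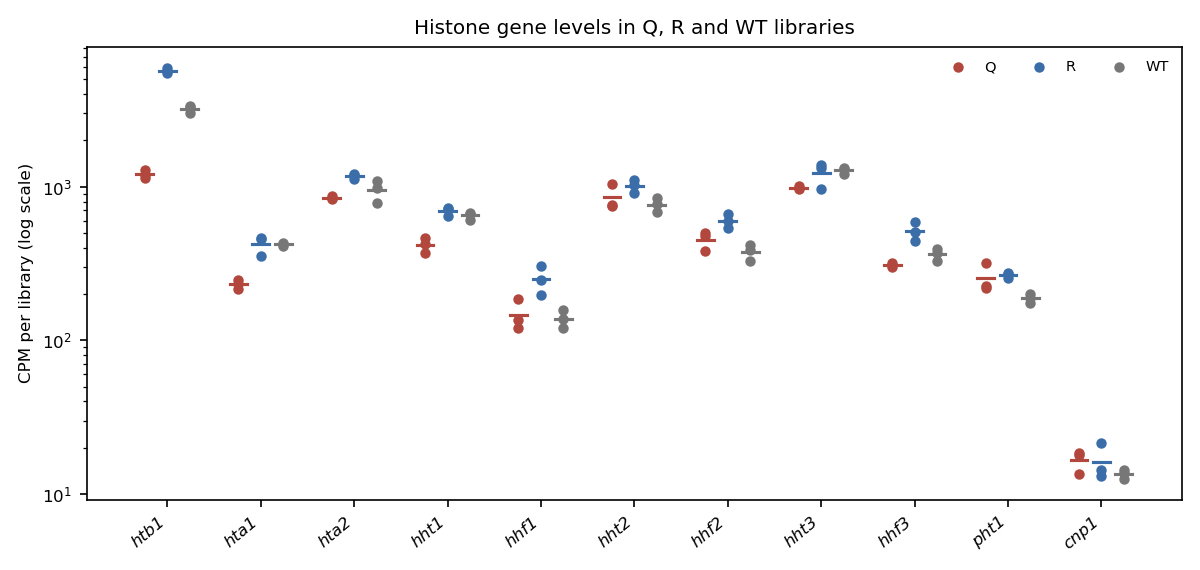
CPM per library (log axis) of 11 histone genes in Q, R and WT, with a bar at each group's mean. The Q points of htb1, hta1, hht1 and hhf3, the genes called lower in Q, lie below all R points, and the 2 rightmost genes, pht1 and cnp1, overlap.

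Several genes of cell separation were lower in Q. At the end of division, fission yeast cells part when glucanases dissolve the primary septum and the surrounding wall. Of 22 septation genes tested, 6 were called lower in Q and none higher, beside 1.57% of all tested genes called lower. The median log2 fold change was -0.18 and 8 of the 22 were positive. The Q and R libraries were separate for 11 of the genes, 8 lower and 3 higher in Q, beside 9.16% of all tested genes in each direction. DESeq2 called 8 lower and 2 higher, and limma 5 lower and 1 higher. The 6 were agn1, cfh4, adg3, adg1, eng1 and adg2.

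agn1 (SPAC14C4.09), the alpha-glucanase that digests the wall around the septum, had 217, 237 and 438 CPM in Q and 967, 1340 and 1287 CPM in R. All Q libraries lay below all R libraries, and agn1 had a log2 fold change of -2.01 (SE 0.27, edgeR adjusted p = 0.00176). Its WT mean was 403 CPM, within the range of Q. agn1 overlaps mug5 and SPAC14C4.10c, and without a known strand setting the reads of overlapping genes cannot be told apart. cfh4 (SPBC3E7.12c), a predicted regulator of chitin synthase, had 455, 373 and 817 CPM in Q and 1531, 1400 and 1725 CPM in R (-1.5, SE 0.26, adjusted p = 0.00945). The predicted beta-glucosidase gene adg3 (SPCC18.01c) had 681, 395 and 891 CPM in Q and 1832, 1657 and 1751 CPM in R (-1.41, SE 0.23, adjusted p = 0.00812). adg1 (SPAPJ760.03c), a gene specific to Schizosaccharomyces, had 248, 310 and 376 CPM in Q and 686, 835 and 948 CPM in R (-1.4, SE 0.24, adjusted p = 0.00923).

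eng1 (SPAC821.09), the beta-glucanase that dissolves the primary septum, was lower by a similar factor but less evenly. It had 42.1, 56.5 and 54.2 CPM in Q and 76.4, 108 and 175 CPM in R (log2 fold change -1.23, SE 0.29, edgeR adjusted p = 0.038). Its call was lost with replicate number as a block (adjusted p = 0.0551) and in 4 of the 6 fits without 1 library (0.0601 to 0.178). adg2 (SPAC19G12.16c) had 166, 134 and 206 CPM in Q and 314, 362 and 346 CPM in R (-1.01, SE 0.2, adjusted p = 0.0186), and its call was lost without Q replicate 1 (0.0604) or R replicate 3 (0.0685). mid2, the gene of a septin-associated medial ring protein needed for separation, had 1446, 1874 and 2107 CPM in Q and 2628, 3092 and 2338 CPM in R, separate but not called (-0.57, adjusted p = 0.127).

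The genes of the forkhead factors that regulate septation genes lay apart in opposite directions without being called, with sep1 at a log2 fold change of -0.52 (edgeR adjusted p = 0.0783, and 0.0487 with replicate number as a block) and fkh2 at 0.43 (0.0984). The remaining genes of the list, among them the ring genes cdc15 and imp2 and the kinase genes plo1 and fin1, were not called either. In a fit of the Q and R libraries alone 3 of the 22 genes were called lower, and without single libraries the number was between 4 and 8.

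**Figure D4:**
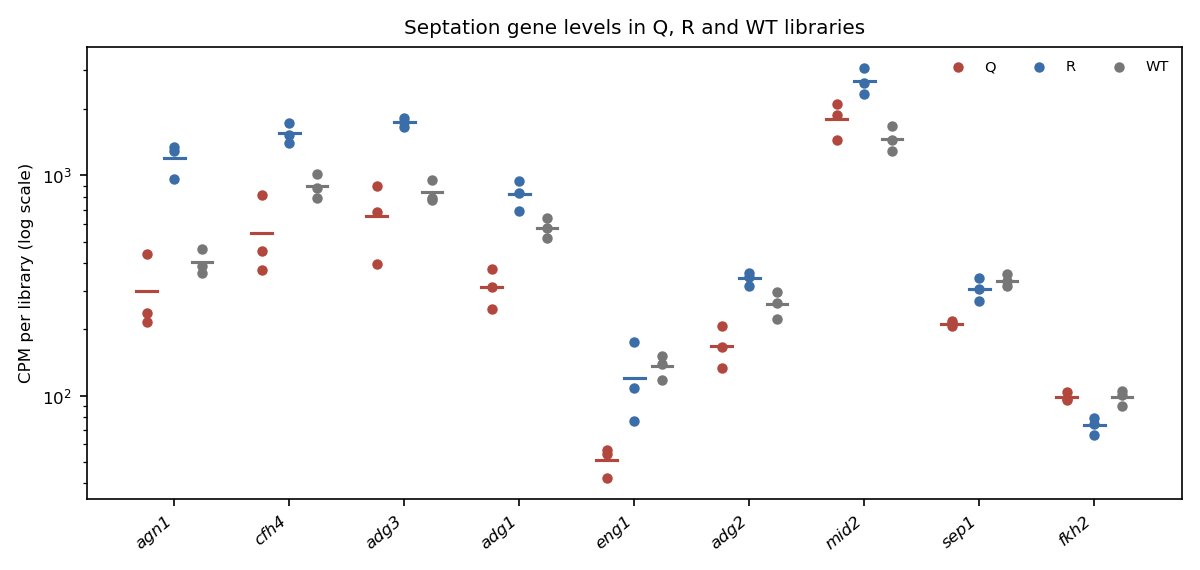
CPM per library (log axis) of 9 septation genes in Q, R and WT, with a bar at each group's mean. For the 6 leftmost genes all Q points lie below all R points, while for the regulator gene fkh2 all Q points lie above all R points.

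Other wall enzymes were lower in Q beside the septation genes. The exo-glucanase gene exg1 had 222, 224 and 280 CPM in Q and 448, 342 and 475 CPM in R (log2 fold change -0.8, SE 0.17, edgeR adjusted p = 0.0236). Of 32 wall synthases and enzymes, a list that shares agn1 and eng1 with the septation genes, these 3 were called lower and none higher, and the median was -0.02. Among all tested genes 1.57% were called lower. Outside that list, and named after their values were seen, the beta-glucosidase gene bgl2 (-0.77, adjusted p = 0.0221), the chitinase gene cts2 (-1.15, 0.0454) and the beta-glucanase gene SPBP23A10.11c (-0.71, 0.0232) were called lower too. The call of exg1 was lost without any of Q replicates 1 and 2 and R replicates 1 and 3 (0.0601 to 0.114). That of cts2 was lost with replicate number as a block (0.0559) and in 5 of the 6 fits without 1 library (0.052 to 0.152). bgl2 and SPBP23A10.11c were each lost without replicate 1 or 3 of either mutant (0.0637 to 0.101).

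Some hexose transporter genes were lower in Q. These membrane carriers bring glucose and related sugars into the cell and differ in affinity. Of 7 tested, 2 were called lower in Q and none higher, beside 1.57% of all tested genes called lower, all 7 had a negative log2 fold change, and the median was -0.88. ght2 (SPBC4B4.08) had 198, 200 and 167 CPM in Q and 817, 327 and 846 CPM in R (-1.82, SE 0.4, edgeR adjusted p = 0.0274). R replicate 2 was far below the other R libraries yet above all Q libraries. ght6 had 63.8, 74.7 and 66.2 CPM in Q and 89.3, 119 and 116 CPM in R (-0.67, SE 0.16, adjusted p = 0.038). ght5, which encodes the main high-affinity glucose carrier, had 1120, 1924 and 786 CPM in Q and 1632, 2533 and 2898 CPM in R, and the groups overlapped (-0.88, SE 0.34, adjusted p = 0.191). No member was called without Q replicate 1, Q replicate 3 or R replicate 3, nor in the Q and R libraries alone, and 1 without each of the other libraries.

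Among the genes lower in Q with the lowest p were toa2 and bdf1. toa2 (SPCC553.11c), the small subunit of the factor TFIIA that steadies the TATA-binding protein on promoters, had 95.2, 73 and 78.7 CPM in Q and 184, 156 and 147 CPM in R (log2 fold change -0.98, SE 0.14, edgeR adjusted p = 0.00303). bdf1 (SPCC1450.02), a bromodomain subunit of the Swr1 remodelling complex, had 125, 131 and 117 CPM in Q and 222, 228 and 201 CPM in R (-0.8, SE 0.12, adjusted p = 0.00322). Q lay close to WT for both, whose WT means were 72.6 and 116 CPM, and R lay above it.

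The TATA-binding protein gene tbp1, named after its values were seen, had 217, 300 and 246 CPM in Q and 445, 534 and 524 CPM in R (log2 fold change -0.98, SE 0.15, edgeR adjusted p = 0.00645). toa2, bdf1 and tbp1 were called in each of the 6 fits that left out 1 library. The second BET gene, bdf2, had 331, 358 and 339 CPM in Q and 668, 437 and 729 CPM in R (-0.83, adjusted p = 0.019), and its call was lost without replicate 1 or 3 of either mutant (0.0623 to 0.0908). sap1, a DNA-binding protein of the mating-type region and of replication fork barriers, had 81.2, 109 and 97.5 CPM in Q and 163, 161 and 178 CPM in R (-0.8, SE 0.14, adjusted p = 0.0106), lost without R replicate 3 (0.0556). toa2 and sap1 overlap other protein-coding genes, and bdf1, tbp1 and bdf2 overlap noncoding genes on the opposite strand. Of the 179 called genes found in the reference, 153 overlap an annotated gene of some kind on the opposite strand. With the strand setting not given, reads of such genes cannot be told apart.

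In the lists of complexes that write, remove or bind histone marks, between 0 and 2 genes each were called, beside 3.64% of all tested genes. Of a list of 28 genes of acetyltransferase complexes 1 was called higher, eaf1, which the deposited annotation describes as an RNA polymerase II elongation factor and not as an acetyltransferase subunit, at 152, 136 and 139 CPM in Q and 100, 103 and 107 CPM in R (log2 fold change 0.46, SE 0.09, edgeR adjusted p = 0.0185). Outside this list, and named after its values were seen, the acetyltransferase complex gene eaf7 was higher at 22.5, 31 and 29.7 CPM in Q and 13.6, 17.3 and 14.1 CPM in R (0.89, SE 0.16, adjusted p = 0.0126). None of 25 deacetylase and sirtuin genes was called by edgeR, 6 had an unadjusted p below 0.05, DESeq2 called 1 lower and limma none. Of 29 genes of heterochromatin and RNA interference, arb2, which encodes a partner of Argonaute, was called higher (0.88, adjusted p = 0.0229) and bdf2 lower. Of 33 genes of histone methylation and ubiquitylation 1, the SAGA gene sgf73, was called higher (0.53, adjusted p = 0.0233). Among histone regulators and chaperones 1 of 16, the assembly protein gene nap2, was called higher, at 255, 235 and 275 CPM in Q and 188, 175 and 174 CPM in R (0.51, SE 0.11, adjusted p = 0.0284). Single libraries decided these calls: arb2, sgf73 and nap2 were each lost without replicate 1 or 3 of either mutant (0.0501 to 0.131), eaf1 without Q replicate 1, R replicate 1 or R replicate 3 (0.0604 to 0.0777), and eaf7 without R replicate 1 or 3 (0.0637 and 0.0673).

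The series concerns break repair, and in the lists of repair and checkpoint genes 1 gene was called, beside 3.64% of all tested genes. None of 5 end-joining genes was called by edgeR, DESeq2 or limma, 2 had an unadjusted p below 0.05, and the log2 fold changes ran from 0.12 to 0.6. The ligase gene lig4 had 48.3, 47.7 and 68.5 CPM in Q and 33.5, 46.8 and 35.2 CPM in R (0.51, SE 0.17, edgeR adjusted p = 0.135). Of 15 genes of homologous recombination none was called by the 3 tools and none had an edgeR p below 0.05. rad52, which encodes a strand-annealing protein, had 45.2, 36.7 and 40.5 CPM in Q and 49.6, 54.1 and 45.8 CPM in R (log2 fold change -0.29, SE 0.14, edgeR adjusted p = 0.281).

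None of 29 genes of resection and other break repair was called by any of the 3 tools, with 6 at an unadjusted edgeR p below 0.05 and log2 fold changes from -0.57 to 0.8. The nuclease gene mre11 had 115, 97.8 and 114 CPM in Q and 78.8, 76.9 and 96.1 CPM in R, separate but not called (0.38, SE 0.12, adjusted p = 0.134). None of 26 excision and mismatch repair genes was called by edgeR (5 at an unadjusted p below 0.05) or limma, and DESeq2 called 1. Of 22 checkpoint genes 1 was called, wee1, the kinase that delays entry into mitosis. It had 172, 215 and 188 CPM in Q and 361, 318 and 390 CPM in R (-0.9, SE 0.19, edgeR adjusted p = 0.0236), a call lost without replicate 1 or 3 of either mutant (0.0821 to 0.108). DESeq2 called 3 checkpoint genes higher and 1 lower. Genes that were not called are not thereby shown to be equal, and the SEs given show the size that could have gone unseen.

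**Figure D5:**
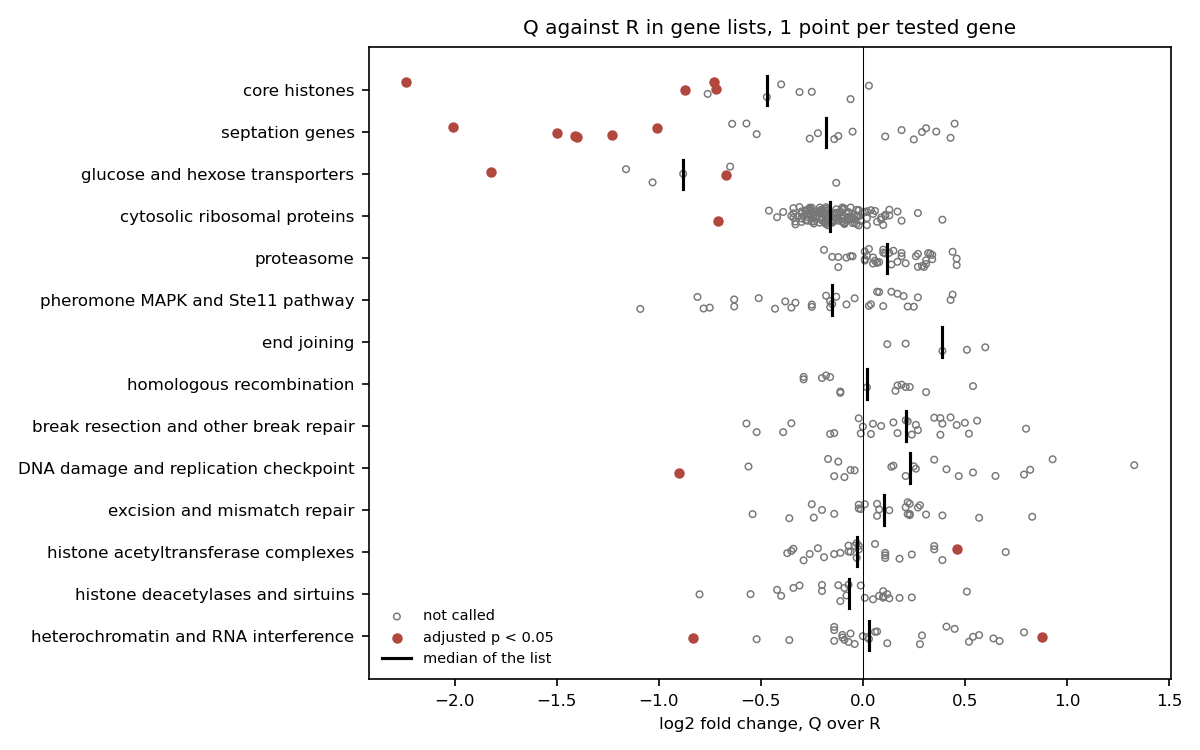
Log2 fold change of Q over R for each tested gene (1 point) of 14 gene lists, with a bar at the median of the list. Filled points have an adjusted p below 0.05 (edgeR). The histone, septation and hexose transporter lists have several filled points below 0, and the 4 lists of end joining, homologous recombination, resection and excision repair have none.

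Beyond these groups, single genes stood out. SPCP20C8.02c, a member of a family specific to this yeast and the second gene from the left end of chromosome III, had 11.3, 7.44 and 9.62 CPM in Q and 1.66, 1.72 and 2.03 CPM in R (log2 fold change 2.39, SE 0.22, edgeR adjusted p = 6.45e-05). gst1, a glutathione S-transferase gene of the oxidative stress response, had 8.1, 5.61 and 4.05 CPM in Q and 2.09, 1.66 and 1.65 CPM in R (1.71, SE 0.28, adjusted p = 0.00798). By contrast the thioredoxin gene trx1, at 290, 225 and 245 CPM in Q and 498, 355 and 476 CPM in R (-0.81, SE 0.15, adjusted p = 0.0164), and the superoxide dismutase gene sod1, at 385, 387 and 357 CPM in Q and 633, 521 and 580 CPM in R (-0.62, SE 0.11, adjusted p = 0.00983), were lower. Of 34 redox genes 2 were called higher and 3 lower, beside 2.07% and 1.57% of all tested genes. The call of trx1 was lost without Q replicate 3, R replicate 1 or R replicate 3 (0.0593 to 0.0725), and that of sod1 without R replicate 1 (0.052).

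php4, the subunit that represses iron-using genes when iron is scarce, had 131, 138 and 86.3 CPM in Q and 56.8, 50 and 55.9 CPM in R (log2 fold change 1.12, SE 0.22, edgeR adjusted p = 0.017), a call lost without Q replicate 1, R replicate 1 or R replicate 3 (0.0571 to 0.0672). Of 20 wtf elements, repeated genes known as meiotic spore killers, 4 were called higher and none lower, with a median of 0.29. Of all tested genes 2.07% were called higher. They were wtf10, wtf20, wtf7 and wtf15, between 0.83 and 1.42 on the log2 scale, and were named after their values were seen. None of these 4 has a copy at 95% identity or more over at least 50% of its length. Reads of shorter stretches can still be shared among wtf relatives, which was not tested, so their single values are uncertain. Each of the 4 calls was lost without Q replicate 1, R replicate 1 or R replicate 3 (0.0648 to 0.189). Those of wtf10 (0.0636) and wtf7 (0.0637) were also lost without Q replicate 2, and that of wtf7 without Q replicate 3 (0.0793).

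gon7 (SPAC6B12.18), a subunit gene of the KEOPS complex that modifies transfer RNA, had no count in any Q library and 165, 89 and 196 counts in the R libraries. With the floor of 3 counts taken over the group, it was at least 155-fold lower in Q (edgeR adjusted p = 0.0388). The WT libraries had 0, 2.88 and 0 CPM and the A libraries 0, 0 and 0.781 CPM, against 10.2, 5.28 and 12.4 CPM in R. R thus stood above all other groups, and Q lay near WT and A. Against WT, gon7 was called neither in Q (edgeR adjusted p = 0.0941) nor in R (0.0693). The gene lies within the span of SPAC6B12.04c, annotated on the opposite strand, which was higher in Q (log2 fold change 0.61, adjusted p = 0.0185), so the assignment of reads between them is uncertain. The call was lost in 5 of the 6 fits without 1 library (0.0657 to 0.118) and with DESeq2 (0.0812). MSTRG.2955, a locus assembled by StringTie with no product named, had 52.9, 63.4 and 54.8 CPM in Q and 142, 198 and 205 CPM in R (-1.67, SE 0.23, adjusted p = 0.00273).

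In large housekeeping classes the fold changes leaned to one side. Of 140 cytosolic ribosomal protein genes 1, rpl3402, was called lower (log2 fold change -0.71, edgeR adjusted p = 0.0302, lost in 5 of the 6 fits without 1 library, 0.0604 to 0.104). The median was -0.16, 19 of the 140 were positive, and all 18 whose libraries were separate were lower in Q. Of all tested genes 9.16% were separate and lower in Q, and 1.57% were called lower. On the FPKM scale, where the median of all genes was 0.13, that of the ribosomal protein genes was -0.04. None of 42 proteasome genes was called by edgeR, 4 had an unadjusted p below 0.05, and DESeq2 and limma each called 1 higher. The median was 0.12, 35 of the 42 were positive, and all 5 whose libraries were separate were higher in Q. Among all tested genes 9.16% were separate and higher in Q. None of 33 genes of the pheromone and Ste11 pathway was called by edgeR or limma, 4 had an unadjusted p below 0.05 and DESeq2 called 1 lower. Markers of the mating types were expressed in both mutants. Their calls stand beside 2.07% of all tested genes called higher and 1.57% called lower. Of 8 M cell markers mam1, the M-factor exporter gene, was called lower at 67.3, 62.9 and 74.7 CPM in Q and 133, 105 and 151 CPM in R (-0.92, SE 0.15, adjusted p = 0.00801), and the protease gene sxa2 higher (0.52, adjusted p = 0.0387), a call lost with replicate number as a block (0.0551). None of 5 P cell markers was called by edgeR, DESeq2 or limma, and none had an edgeR p below 0.05.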

How the data were processed

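RNA-seq of whole cells was analysed for 3 Q and 3 R libraries, with 3 A and 3 WT libraries in the same fit. Each deposited table gives, per the file headers, the count of every gene in every library and next to it the FPKM. The submitters' processing notes list RSEM, StringTie, HISAT2, Bowtie2, fastp and DESeq2, with no role or version. For the build, the annotation and the strand setting: not given in the sources used here. The tables were joined on gene identifier (5160 genes). filterByExpr kept 5024 genes and left out 136, counts were scaled with TMM, and group was the only term of a quasi-likelihood fit in edgeR 4.0.16 (R 4.3.3). The common biological coefficient of variation was 0.186. Each SE is approximate, the log2 fold change divided by the root of F. Reads carry no molecular identifiers, so floors of 3 counts cover counting error only.

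Groups came from sample titles and genotype labels. Members and gene lists were chosen with earlier results of these data known. Genes were named by a rule: htb1, hta1 and sec5, the 15 largest rises and falls (called, at least 2-fold, at least 5 CPM, libraries not overlapping), the 5 lowest p in each direction and up to 4 lowest p per list described. Genes named outside it were chosen after their values were seen, among them adg2, mid2, sep1, fkh2, ams2, tbp1, eaf7 and histone genes that were not called. Equal replicate numbers were taken to pair Q and R, since their deviations from the group means correlated at 0.32, 0.4 and 0.29, all above 0.1. No label says what the numbers share. Replicates of Q or R differed by more than sampling noise (chi-square per degree of freedom at least 28.5). Promoters and gene order came from RefSeq ASM294v3, in which 5109 identifiers matched and 51 did not. Some items are not reported here. Copies were sought with BLAST 2.17.0. On simulated counts for Q against R (5017 genes), the fit recovered 82 of 100 genes changed by 1 and 97 of 100 changed by 2 on the log2 scale, with 8 false calls. The changed genes were drawn from those with a mean above 5 CPM, and no effect of replicate number was simulated. These shares may therefore not hold for the real libraries. Alternatives used DESeq2 1.42.0, limma 3.58.1 on log2(FPKM + 1) or log2(FPKM + 0.1), other scalings and filters, a replicate block, and fits without libraries.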

Additional observations from a re-analysis of the deposited data

How the results depend on the processing

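The count of 183 genes was 345 with DESeq2, 42 in a fit of the Q and R libraries alone and 483 with replicate 2 of both mutants left out. Without single libraries it ranged from 51 to 462. The 73 genes at least 2-fold apart became 33 in the Q and R libraries alone and 124 with replicate 2 of both left out, and ranged from 41 to 112 without single libraries. With replicate number as a block 207 genes were called in all 12 libraries, of which 169 were among the 183. In that fit, of the genes named in the text, eng1, cts2 and sxa2 lost their calls and hhf1 and sep1 gained one; it changed no other call named there. The block in the Q and R libraries alone called 188, of which 36.2% were higher in Q. That fit lost sxa2 (0.212), mel1 (0.104), arb2 (0.0854), sgf73 (0.1), nap2 (0.0594), eaf1 (0.0852), SPAC6B12.04c (0.0544), wtf7 (0.0764), wtf15 (0.0826) and wtf20 (0.0695), all adjusted p from edgeR. RLE size factors gave 185 genes, no filter 183, a minimum of 5 CPM 178 and limma on log2(FPKM + 1) 200. In every alternative 26 genes were called. No called result reversed its direction in these alternatives. Genes near 3 counts, such as those of the right end of chromosome I in R, have fold changes set by a few reads. The cause of the differences between settings was not tested.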
